A study of Homo sapiens with 6 samples.

Results

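The genes described here decide how many Wnt receptors a cell carries and report on the pathway's output. They are 10 of the 61860 genes in the count table: the R-spondin receptor LGR4, the ubiquitin ligases ZNRF3 and RNF43, the co-receptors LRP5 and LRP6, the Frizzled receptors FZD6 and FZD7, and the feedback genes AXIN2, TCF7 and DKK1. They were chosen by role, with the differences between knockdown and control in these same libraries already known, so their values below are a description and no test is drawn from them. Each symbol matched 1 Ensembl gene, and 9 of the 10 had enough counts to enter the fit across all genes. DKK1 did not.

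The cells were A498, a human line from a clear cell kidney carcinoma, in 2 groups of 3 RNA sequencing libraries. Per the labels, the group PTPRZ_nc is the control for a PTPRZ1 knockdown and is described with a plasmid, and the group PTPRZ_Si carries the PTPRZ1 knockdown made with siRNA; both were transfected, no time after transfection is stated, and all 6 libraries come from 1 line. PTPRZ1 encodes a receptor tyrosine phosphatase. The labels do not say whether replicates were separate cultures, so errors and p-values cover only how far libraries of a group lie apart, possibly for technical reasons, and the plasmid and siRNA cannot be told apart from the knockdown.

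As background, Wnt proteins bring a Frizzled receptor together with LRP5 or LRP6, and the scaffold AXIN then stops marking beta-catenin for destruction, so that beta-catenin reaches TCF and LEF factors on DNA. ZNRF3 and RNF43 are membrane ligases that send Frizzled receptors to the lysosome. R-spondins bind an LGR receptor together with such a ligase and remove the ligase from the surface, which leaves more receptors in place. ZNRF3, RNF43, AXIN2, TCF7 and DKK1 are known targets of the pathway in many cell types and restrain or tune it.

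Total counts per library ran from 13726908 (control library 2) to 21469746. Control library 2 also lay furthest from its group. Its chi-square per degree of freedom against sampling noise was 5.25 and 6.23 with control libraries 1 and 3, and 2.67 between those libraries. For knockdown library 2 the values were 2.77 and 3.47 with knockdown libraries 1 and 3, and 2.19 between those libraries. PTPRZ1 itself had 0 counts in all 6 libraries, which allows up to 0.0607 CPM (counts scaled to library size, with TMM factors) over the 3 controls together, taking 3 counts as the limit and covering counting error only. The knockdown therefore could not be checked by its target, and every direction rests on the labels. The 9 markers of kidney epithelium and clear cell carcinoma summed to 3106 to 3155 CPM in the controls and 3167 to 3298 CPM in the knockdown. Of the 8 tested, PAX8, PAX2, CDH6, CDH16, KRT8 and KRT18 were called higher and VIM lower. CA9 was low at 2.996 and 2.536 CPM in the group means, and CDH1 had 46 counts in all. Of the leukocyte markers PTPRC and CD3E were at 0, of the endothelial markers CDH5, and of the fibroblast markers LUM. The leukocyte marker CD14 (0.383 and 0.845 CPM in the group means) and the endothelial marker PECAM1 (0.715 and 1.357 CPM) did not pass. For both, all knockdown libraries stood above all controls. The summed level of the 4 leukocyte markers was 0.267 to 0.731 CPM in the controls and 0.672 to 1.255 CPM in the knockdown, and that of the 3 endothelial markers 0.935 to 1.014 and 1.357 to 1.603 CPM. The 4 fibroblast markers summed to 31.2 to 41.3 and 21.2 to 23.6 CPM, of which COL1A1 held 2949 of 2956 counts. COL1A1 was called lower (log2 fold change -0.67, edgeR adjusted p = 5.63e-05). The part of these levels in the results below was not tested. In RNA from a whole culture, a change per cell and a change in the share of cells that make a transcript cannot be told apart.

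Promoter windows from RefSeq (GRCh38.p14, 250 bases before to 50 after a transcript start) were taken for 5 of the genes, with 7 in all. They were searched on both strands for the letters of a TCF/LEF element and for CCAAT. The TCF/LEF words were CTTTGAA, found in 4.43% of all 35116 windows of this length, then CTTTGAT in 2.62%, then CTTTGTA in 2.77%, and finally CTTTGTT in 5.2%; no 2 matches overlapped in the windows of these genes. Of all windows, 13.8% hold at least 1 of the 4 TCF/LEF words and 34.6% hold CCAAT. The windows shown belong to the gene with the largest difference (LGR4), to the later start of the nuclear factor that rose (TCF7), and to a classical Wnt target that had almost no counts (DKK1); capitals mark the matches. The LGR4 window (chr11:27472741-27473040, minus strand) holds no TCF/LEF word and 2 CCAAT words, 132 and 81 bases before the start. The TCF7 window (chr5:134123368-134123667, plus strand) holds CTTTGTT once, on the opposite strand, 50 bases before the start. The DKK1 window (chr10:52314031-52314330, plus strand) holds CTTTGAA 95 bases and CTTTGTT 76 bases before the start. Neither the LRP5 window, nor either RNF43 window, nor the earlier TCF7 window holds a TCF/LEF word. Windows of the other genes, FZD6 among them, are not reported here. A match is a match of letters and no evidence of binding.
LGR4: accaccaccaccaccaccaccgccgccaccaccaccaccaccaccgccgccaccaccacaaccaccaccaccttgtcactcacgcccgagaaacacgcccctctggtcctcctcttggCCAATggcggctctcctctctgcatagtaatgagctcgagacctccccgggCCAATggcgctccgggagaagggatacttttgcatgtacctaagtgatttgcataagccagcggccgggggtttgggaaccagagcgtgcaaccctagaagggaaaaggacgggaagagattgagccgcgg
TCF7: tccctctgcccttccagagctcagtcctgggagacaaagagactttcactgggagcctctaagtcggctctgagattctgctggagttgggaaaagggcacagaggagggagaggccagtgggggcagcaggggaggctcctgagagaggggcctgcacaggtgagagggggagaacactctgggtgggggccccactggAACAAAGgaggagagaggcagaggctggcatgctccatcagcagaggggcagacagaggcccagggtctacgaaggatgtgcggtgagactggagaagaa
DKK1: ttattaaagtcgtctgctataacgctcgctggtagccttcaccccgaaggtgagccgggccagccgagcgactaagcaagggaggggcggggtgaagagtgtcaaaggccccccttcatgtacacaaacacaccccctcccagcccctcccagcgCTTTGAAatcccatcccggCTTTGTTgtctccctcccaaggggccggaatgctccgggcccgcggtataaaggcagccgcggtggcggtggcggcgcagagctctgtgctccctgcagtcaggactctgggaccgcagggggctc

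LGR4 had the largest difference of the 9 tested genes. Its level was 83.2, 84.0 and 80.4 CPM in control libraries 1, 2 and 3, and 178.5, 178.6 and 181.1 CPM in knockdown libraries 1, 2 and 3. All 3 knockdown libraries stood above all 3 controls, and the spread within each group was small beside the gap. The mean rose from 82.55 ± 1.88 to 179.4 ± 1.49 CPM (SD, n = 3 each), 2.17-fold (log2 fold change 1.12, SE 0.0453). Of 15476 tested genes, 99.2% had a lower log2 fold change. LGR4 (ENSG00000205213) lies on chromosome 11 from 27365961 to 27472775 (GRCh38, minus strand), and its exons overlap those of no other gene in GENCODE 29.

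LGR4 was nearly the whole of the counted LGR family. Its relatives LGR5, the marker of intestinal stem cells, and LGR6 had 5 and 26 counts over all 6 libraries, too few to test. Per length, LGR4 made up 99.5% ± 0.554 of the summed level of the 3 receptors in the controls and 99.8% ± 0.245 in the knockdown (SD, n = 3 each). The ligands that LGR receptors bind were near or at the limit of counting. RSPO1 had 0 counts in the 6 libraries together, RSPO2 had 3, RSPO3 had 25 and RSPO4 had 13. By library, RSPO3 was counted 3, 2 and 7 times in controls and 4, 7 and 2 times in knockdown cells. A change in any R-spondin at such counts was not detectable at this depth. No knockdown library held an R-spondin above 0.336 CPM, the level of RSPO3 in knockdown library 2.

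The ligases differed in level and in their difference between groups. ZNRF3 had 31.5, 32.1 and 29.4 CPM in the controls and 58.7, 47.0 and 53.3 CPM in the knockdown. The knockdown libraries were all above the controls but spread more widely among themselves, with library 1 highest and library 2 lowest. The mean rose from 31.02 ± 1.39 to 53.01 ± 5.83 CPM (SD, n = 3 each), 1.71-fold (log2 fold change 0.77, SE 0.0797). ZNRF3 (ENSG00000183579) lies on chromosome 22 from 28883592 to 29057487 (GRCh38, plus strand). Leaving out 1 library at a time moved its log2 fold change between 0.69 and 0.85.

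RNF43 (ENSG00000108375), the close relative of ZNRF3, was counted far less. It had 2.75, 3.73 and 3.09 CPM in the controls and 2.93, 3.84 and 4.397 CPM in the knockdown, with overlapping groups. The log2 fold change was 0.25 with an SE of 0.212, and the gene did not pass. Its level is a lower limit, because 73.9% of its 7505 exon bases (chromosome 17 from 58352500 to 58417595, minus strand) also belong to other annotated genes, and read pairs over shared bases are left out of the counting unless an option that the file header does not show is set. Reads were counted without regard to strand, so antisense reads cannot be told apart. The overlaps are 4326 bases with the same-strand protein-coding gene model ENSG00000285897, 1521 with the antisense RNA TSPOAP1-AS1 and 143 with SUPT4H1. Over the 1959 bases of its own, RNF43 had 1.63 ± 0.254 CPM per kb in the controls, against 4.45 ± 0.200 CPM per kb for ZNRF3 (SD, n = 3 each). The ratio of ZNRF3 to RNF43 per length was 2.42 to 3.23 in the control libraries and 3.41 to 5.64 in the knockdown libraries. The ratio depends on the length used: over all 7505 exon bases RNF43 had 0.425 CPM per kb in the controls, and ZNRF3 stayed at 4.45.

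The co-receptors LRP5 and LRP6, single-pass membrane proteins that are phosphorylated when Wnt binds, were close between groups. LRP5 had 218.7, 221.1 and 207.2 CPM in the controls and 208.1, 202.0 and 221.1 CPM in the knockdown, and the groups overlapped. Its mean was 215.6 ± 7.42 and 210.4 ± 9.78 CPM (SD, n = 3 each; log2 fold change -0.03, SE 0.0463), and it was the 1 tested gene of the 9 with a negative value. LRP6 had 70.2, 75.3 and 71.5 CPM in the controls and 79.4, 77.5 and 76.0 CPM in the knockdown. Its groups did not overlap, but the highest control (75.3 CPM) lay just under the lowest knockdown library (76.0 CPM), and with a log2 fold change of 0.10 (SE 0.0525) it did not pass. LRP5 (ENSG00000162337) lies on chromosome 11 from 68312609 to 68449275 and LRP6 (ENSG00000070018) on chromosome 12 from 12116025 to 12267012. Per length, LRP5 was the more abundant co-receptor in every library, by 4.86 to 5.22 times in the controls and 4.37 to 4.88 times in the knockdown. LRP5 therefore held 83.3% ± 0.529 of the pair's level in the controls and 81.9% ± 0.911 in the knockdown (SD, n = 3 each).

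The Frizzled receptors FZD6 and FZD7 also differed little. FZD6, which is known mainly from planar cell polarity, had 118.2, 120.4 and 123.1 CPM in the controls and 124.5, 127.0 and 126.1 CPM in the knockdown. The groups did not overlap, yet the log2 fold change was 0.06 (SE 0.0449) and did not pass. FZD7, a receptor for canonical Wnt signals in stem and tumour cells, had 64.5, 75.7 and 64.2 CPM in the controls and 72.8, 68.1 and 76.1 CPM in the knockdown. Control library 2 lay among the knockdown libraries, and the other controls lay below all of them. FZD7 did not pass over all libraries (log2 fold change 0.09, SE 0.0676) and did pass without control library 2 (0.17, SE 0.0571) or without both libraries numbered 2 (0.21, SE 0.0604). FZD6 (ENSG00000164930) lies on chromosome 8 from 103298433 to 103332866, and FZD7 (ENSG00000155760) is a single-exon gene on chromosome 2 from 202034587 to 202038445.

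The feedback genes gave 3 different pictures. TCF7, a DNA-binding partner of beta-catenin, had 62.7, 53.7 and 61.7 CPM in the controls and 71.1, 74.5 and 77.8 CPM in the knockdown. The groups did not overlap, and control library 2 was the lowest. The mean rose from 59.35 ± 4.91 to 74.45 ± 3.32 CPM (SD, n = 3 each; log2 fold change 0.33, SE 0.0639). TCF7 (ENSG00000081059) lies on chromosome 5 from 134114711 to 134151865 and shares 210 exon bases with SKP1 on the other strand.

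AXIN2 (ENSG00000168646), the scaffold most often used as a readout of beta-catenin activity, had 4.21, 5.41 and 5.44 CPM in the controls and 6.34, 6.58 and 6.18 CPM in the knockdown. The groups did not overlap. The log2 fold change of 0.34 was as large as that of TCF7, but with 608 counts over the 6 libraries its SE was 0.158, and it did not pass. Of its 5226 exon bases (chromosome 17 from 65528563 to 65561647, minus strand), 25.2% are shared with the gene model ENSG00000266076, which is listed at 0 in all libraries. DKK1 (ENSG00000107984, chromosome 10 from 52314296 to 52318042), a secreted antagonist that binds LRP5 and LRP6, had 1 count in knockdown library 2 and 0 in the other 5 libraries. Single libraries allow 0.140 to 0.219 CPM for a count of 0, so a change in DKK1 below such levels was not detectable at this depth. A rise well above them was not seen.

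**Figure D1:**
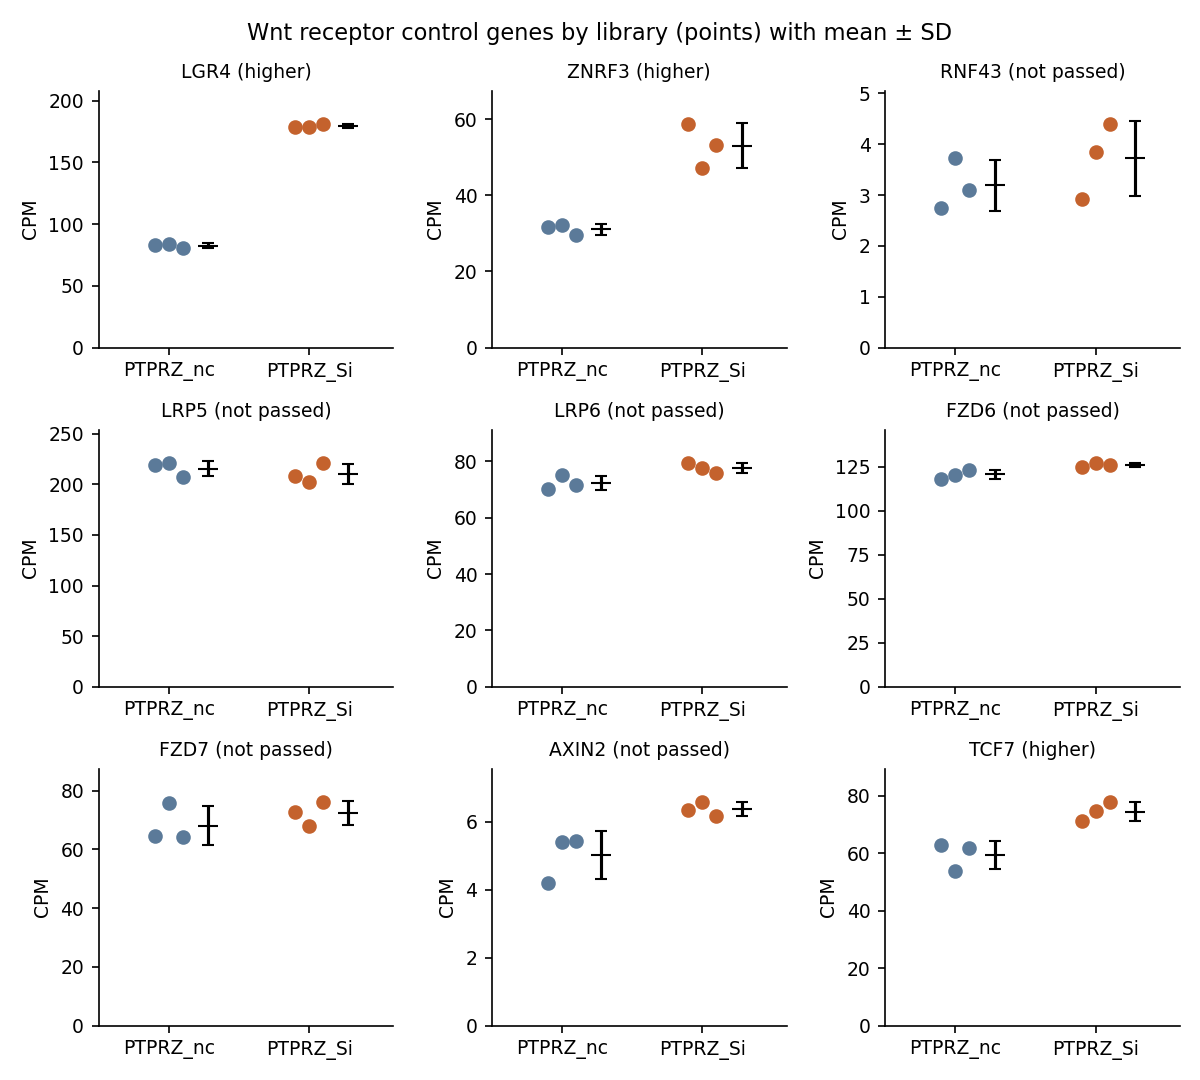
Level in CPM (vertical axes, each starting at 0) of the 9 tested genes in each library, with the 3 PTPRZ_nc libraries in blue, the 3 PTPRZ_Si libraries in orange, and the mean ± SD in black. LGR4 (80.4 to 84.0 against 178.5 to 181.1 CPM) and ZNRF3 (29.4 to 32.1 against 47.0 to 58.7 CPM) show the widest gaps, and the co-receptors and Frizzled receptors lie at similar heights in both groups.

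Across the 9 tested genes, 3 were called higher in the knockdown by edgeR at an adjusted p of at most 0.05 over all tested genes (LGR4, ZNRF3 and TCF7), 0 were called lower, and 6 did not pass. With an unadjusted p under 0.05 there were 4 higher and 0 lower, and DESeq2 and limma-voom each called 3 higher and 0 lower. Of all 15476 tested genes, 27.4% were called, 14.0% higher and 13.4% lower. Groups were fully separate for 6 of the 9 (the 3 above and LRP6, FZD6 and AXIN2), against 40.8% of all tested genes. The median log2 fold change of the 9 was 0.25, and that of all tested genes was 0.001. Since the choice of genes used this comparison, these shares are given for scale only.

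**Figure D2:**
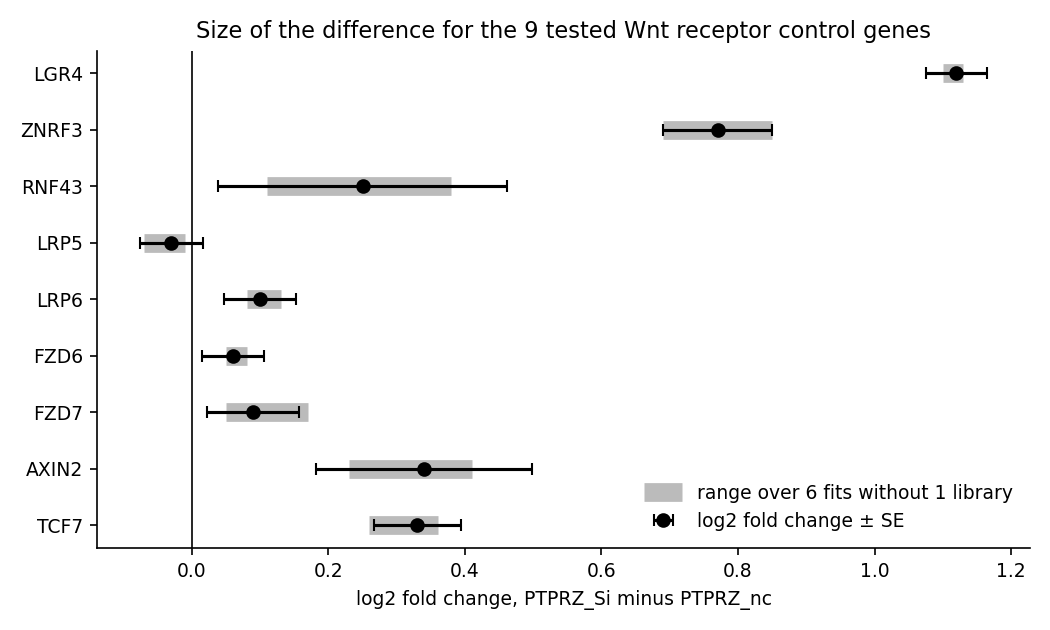
Log2 fold change of PTPRZ_Si over PTPRZ_nc (horizontal axis) for the 9 tested genes, as points with the SE, over grey bars that span the 6 fits without 1 library each. LGR4 (1.10 to 1.13 over those fits), ZNRF3 (0.69 to 0.85) and TCF7 (0.26 to 0.36) lie to the right of 0, and the bars of LRP6, FZD6 and LRP5 lie within 0.13 of 0.

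Levels can be compared between genes only per length, here as CPM per kb of exon that no other counted gene shares. In the controls the order was LRP5 (34.98 ± 1.20), FZD6 (30.70 ± 0.617), FZD7 (17.65 ± 1.70), LGR4 (13.02 ± 0.296), LRP6 (6.996 ± 0.255), TCF7 (6.02 ± 0.498), ZNRF3 (4.45 ± 0.200), RNF43 (1.63 ± 0.254) and AXIN2 (1.28 ± 0.180 CPM per kb, SD, n = 3 each), with DKK1 at 0. The libraries of no neighbouring pair overlapped. Over all exon bases instead, the control mean of RNF43 (0.425 CPM per kb) lay below that of AXIN2 (0.960), so the order of these genes depends on the length used. In the knockdown LGR4, at 28.29 ± 0.235 CPM per kb, stood above FZD7 (18.74 ± 1.05). ZNRF3 (7.61 ± 0.837), TCF7 (7.56 ± 0.337) and LRP6 (7.51 ± 0.166 CPM per kb) overlapped one another there, as did RNF43 and AXIN2. The ratio of LRP5 to LGR4 per length was 2.65 to 2.71 in the control libraries and 1.16 to 1.26 in the knockdown libraries. Exon lengths are those of all annotated transcripts together, so a gene with long unused exons reads low.

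**Figure D3:**
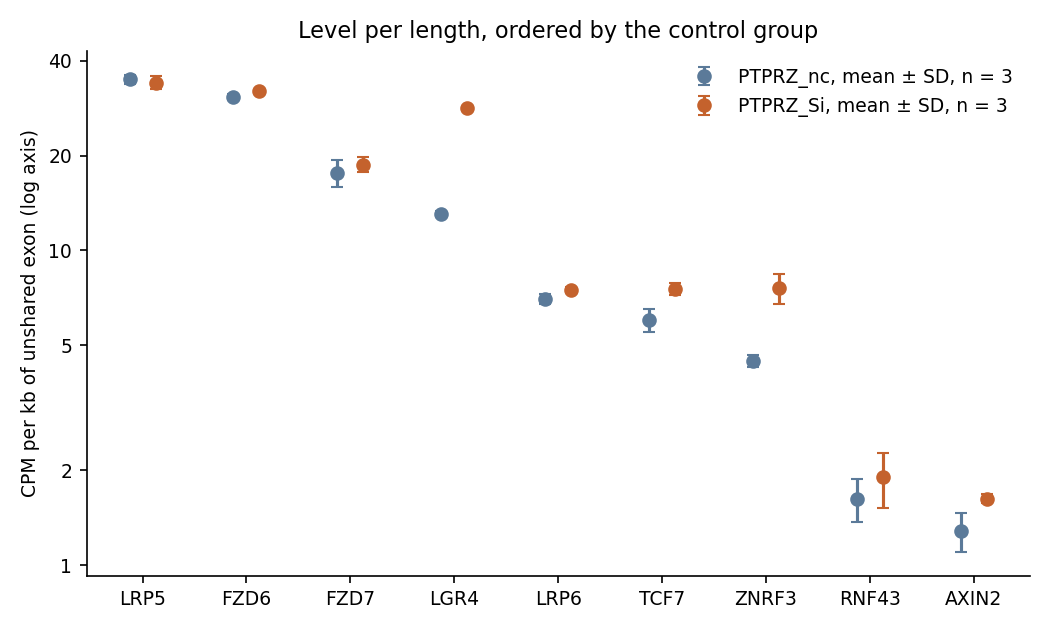
Level per length (vertical log axis, CPM per kb of unshared exon) of 9 genes, ordered by the control group, as mean ± SD of 3 libraries. LGR4 moves from 13.02 in PTPRZ_nc to 28.29 CPM per kb in PTPRZ_Si, between FZD6 and FZD7, while LRP5 (34.98 and 34.13) and FZD6 (30.70 and 32.05 CPM per kb) hold the first places in both groups.

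The other genes of the pathway were listed by role, 114 in all, of which 78 were tested. Of these 78, 18 were higher, 9 were lower and 51 did not pass. The shares over all tested genes are those given above, 14.0% higher and 13.4% lower. These lists were also chosen with earlier results of these data known, so the shares are given for scale only, here and for each list below. Without knockdown library 1 there were 15 higher and 5 lower. The median log2 fold change of the 78 was 0.11.

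Frizzled receptors other than FZD6 and FZD7 gave 3 higher, 0 lower and 4 not passed of 7 tested; 4 were higher and 0 lower at an unadjusted p under 0.05, and DESeq2 and limma-voom each gave 3 and 0. FZD1 rose from 125.7 ± 8.09 to 210.6 ± 3.69 CPM, a log2 difference of 0.75 ± 0.0498 (SE; edgeR adjusted p = 9.48e-09). FZD2 rose from 58.86 ± 0.969 to 71.63 ± 3.31 CPM (0.29, edgeR adjusted p = 0.000961) and FZD5 from 49.77 ± 1.995 to 59.73 ± 1.52 CPM (0.26, edgeR adjusted p = 0.00276; SD, n = 3 each). Without control library 2 FZD8 was also called higher (edgeR adjusted p = 0.0253, and 0.0256 without both libraries numbered 2). FZD10 was at 0 in all libraries. Summed per length over the 10 Frizzled genes, control libraries 1, 2 and 3 had 110.4, 113.3 and 106.9 CPM per kb, and knockdown libraries 1, 2 and 3 had 131.5, 131.6 and 136.6 CPM per kb. The share of FZD1 in that sum was 15.7% to 17.2% in the controls and 22.6% to 22.8% in the knockdown. FZD6 held 27.1% to 29.3% and then 23.5% to 24.6%, although its own level did not pass. FZD7 held 15.1% to 17.3% and then 13.4% to 14.4%.

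**Figure D4:**
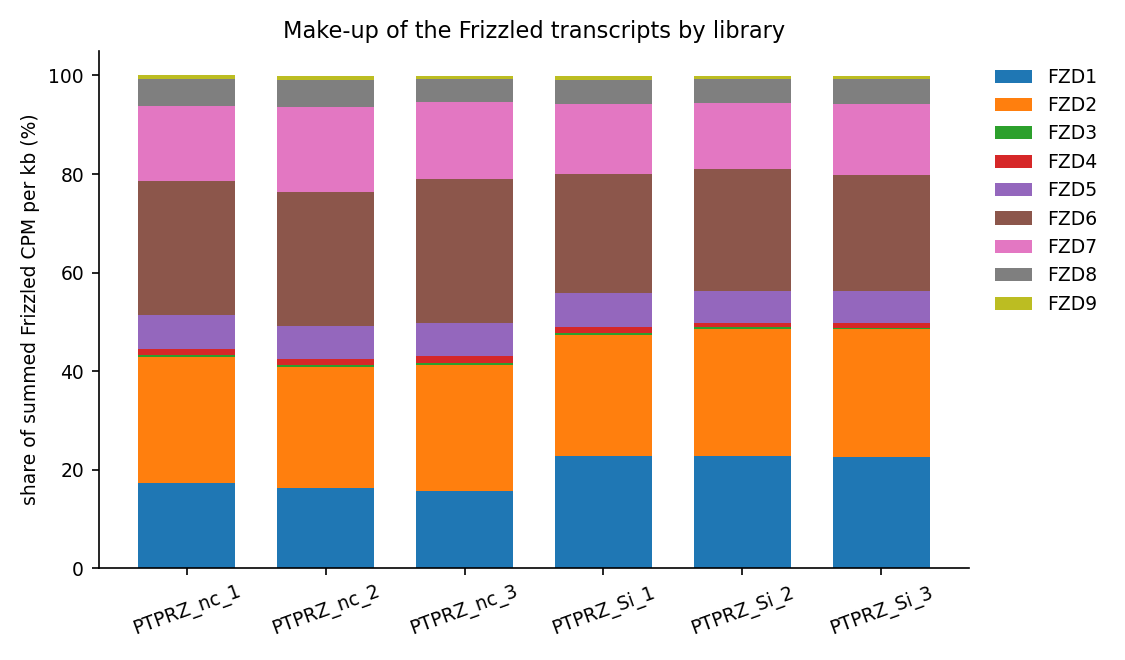
Share of each Frizzled gene in the summed CPM per kb (vertical axis, percent) in each of the 6 libraries; FZD10 is at 0 and not drawn. The FZD1 segment is 15.7% to 17.2% in the PTPRZ_nc libraries and 22.6% to 22.8% in the PTPRZ_Si libraries, and FZD6, FZD2 and FZD7 are the other large segments.

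Among the 19 Wnt ligands 5 were tested, with 1 higher, 1 lower and 3 not passed. WNT5A, a ligand known for signals that do not need beta-catenin, was the most abundant per length and rose from 58.73 ± 0.281 to 78.95 ± 4.74 CPM (SD, n = 3 each; log2 fold change 0.43, edgeR adjusted p = 2.45e-05). WNT9A fell from 12.66 ± 1.41 to 8.40 ± 0.791 CPM (log2 fold change -0.59, edgeR adjusted p = 0.00188). Without knockdown library 3 WNT10A was also called higher (edgeR adjusted p = 0.0488). Of 2 genes of Wnt secretion neither passed. WLS, the carrier that brings Wnt to the surface, had the higher level per length (log2 fold change -0.07).

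Of 6 tested antagonists 2 fell, 0 rose and 4 did not pass; at an unadjusted p under 0.05 there were 1 higher and 2 lower, and DESeq2 and limma-voom each gave 0 and 2. TPBG, a membrane protein that dampens LRP6 signalling, fell from 134.6 ± 3.30 to 95.11 ± 7.80 CPM (SD, n = 3 each; log2 fold change -0.50, edgeR adjusted p = 4.41e-06). DKK3, a relative of DKK1 and the most abundant of the list per length, fell from 196.7 ± 11.04 to 177.2 ± 4.88 CPM (log2 fold change -0.15, edgeR adjusted p = 0.0271). DKK3 did not pass without control library 1, knockdown library 1 or knockdown library 3 (edgeR adjusted p = 0.15, 0.111 and 0.11). SFRP4 was called higher without control library 1 or knockdown library 2 (edgeR adjusted p = 0.0265 and 0.0426), without both libraries numbered 2 (0.043), and with all libraries under the replicate block (log2 fold change 0.60, edgeR adjusted p = 0.0304). DKK2, DKK4, SFRP1, SFRP2, WIF1, SOST and APCDD1 were at 0 in all 6 libraries.

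Of 9 tested genes of the Dishevelled group 1 rose, 1 fell and 7 did not pass: DVL2, an adaptor that Frizzled recruits, rose from 75.72 ± 5.49 to 92.11 ± 1.20 CPM (edgeR adjusted p = 0.00121), and the kinase CSNK1G3 fell from 42.93 ± 0.971 to 35.82 ± 2.96 CPM (edgeR adjusted p = 0.00976, and 0.0634 without knockdown library 2; SD, n = 3 each). CSNK1G2 had the highest level per length there over all 6 libraries together (log2 fold change 0.02), close to DVL1, which had 44.01 against 44.71 CPM per kb in the controls and 45.80 against 45.18 in the knockdown. DVL3 was also called higher with all 6 libraries under the replicate block (edgeR adjusted p = 0.0372), with no filter (0.0313) or at a mean of at least 5 CPM (0.0421), and without control library 1 (0.0138). DACT3 was called higher without control library 2 (edgeR adjusted p = 0.0122) or both libraries numbered 2 (0.034), and DVL1 without both (0.0423). Of 13 genes of the beta-catenin destruction complex and its regulators 2 rose, 1 fell and 10 did not pass. USP34, a deubiquitinase that acts on AXIN, rose (log2 fold change 0.38, edgeR adjusted p = 1.79e-05), as did TNKS, a tankyrase that marks AXIN for removal (0.23, edgeR adjusted p = 0.00868). BTRC, the ubiquitin ligase subunit that recognises beta-catenin, fell (-0.32, edgeR adjusted p = 0.00608), and CSNK1A1, the kinase that primes beta-catenin, had the highest level per length (-0.04). Without control library 2 TNKS2 was also called higher (edgeR adjusted p = 0.0298).

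Of 13 tested genes for beta-catenin and its nuclear partners 4 rose, 1 fell and 8 did not pass. The bridging proteins BCL9L and BCL9, which tie beta-catenin to PYGO proteins, rose from 122.1 ± 7.99 to 172.6 ± 3.04 CPM (log2 fold change 0.50, edgeR adjusted p = 1.2e-06) and from 47.87 ± 7.16 to 65.67 ± 2.50 CPM (0.45, edgeR adjusted p = 0.000566; SD, n = 3 each). PYGO1 rose from 16.09 ± 1.30 to 23.08 ± 2.55 CPM (0.52, edgeR adjusted p = 0.000752). The co-repressor TLE1 rose (0.16, edgeR adjusted p = 0.0153) but did not pass without control library 1 or 3 or knockdown library 1 or 3 (edgeR adjusted p = 0.0668, 0.052, 0.0733 and 0.0632). TLE1 was the most abundant of the list per length over all 6 libraries together, at 28.13 ± 0.938 and 31.30 ± 0.3001 CPM per kb in controls and knockdown (SD, n = 3 each), but CTNNB1 stood above it in the controls (29.44 and 29.46 CPM per kb). The 1 gene that fell, named after its value was seen, was CTNNBIP1, an inhibitor that keeps beta-catenin from TCF factors (-0.66, edgeR adjusted p = 0.000845). CTNNB1, which encodes beta-catenin and is likewise named outside the rule, had 351.1 ± 16.1 and 351.4 ± 8.48 CPM (log2 fold change 0.00, SE 0.0423). Within the TCF and LEF family TCF7 held 34.2% to 39.3% of the summed level per length in the controls and 37.6% to 42.3% in the knockdown, and TCF7L1, TCF7L2 and LEF1 did not pass.

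Transcripts used elsewhere as Wnt target readouts gave 6 higher, 0 lower and 7 not passed of 13 tested; 7 were higher and 0 lower at an unadjusted p under 0.05, and DESeq2 and limma-voom each gave 5 and 0. ID2, an inhibitor of basic helix-loop-helix factors, rose from 53.92 ± 6.22 to 92.65 ± 5.17 CPM (SD, n = 3 each; log2 fold change 0.77, edgeR adjusted p = 4.37e-07). The cyclin CCND1 rose 0.25 on the log2 scale (edgeR adjusted p = 8.73e-05) and BAMBI, a decoy receptor of the TGF-beta family, 0.31 (edgeR adjusted p = 0.00678). These genes answer to other pathways as well. CD44, a hyaluronan receptor, had the highest level per length (log2 fold change -0.02). Without control library 2 the list gave 5 higher and 2 lower, the lower being CD44 (log2 fold change -0.09, edgeR adjusted p = 0.0116) and the transcription factor gene MYC, named after its value was seen (-0.18, edgeR adjusted p = 0.00326). Both were also called lower without both libraries numbered 2 (edgeR adjusted p = 0.0125 and 0.0123). Without control library 3 or knockdown library 1 or 3 it gave 4 higher and 0 lower. The rest of those called higher were NKD1, SP8 and TNFRSF19, with 127, 280 and 476 counts over the 6 libraries. NKD1 lost its call in DESeq2 (adjusted p = 0.0667) and limma-voom (adjusted p = 0.0673). It also lost it without control library 1 or 3 or knockdown library 1 or 3. SP8 did not pass without control library 3 or knockdown library 1 or 2. TNFRSF19 did not pass without control library 2, knockdown library 3 or both libraries numbered 2.

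**Figure D5:**
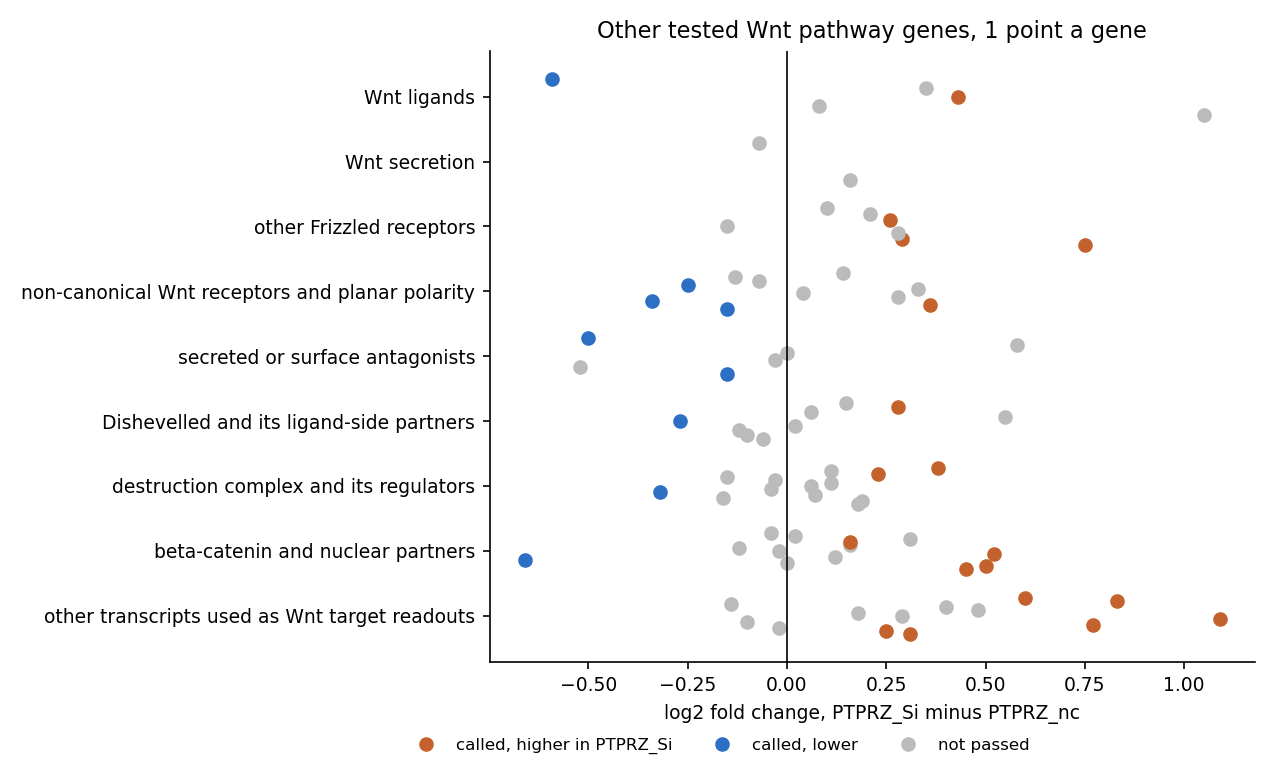
Log2 fold change of PTPRZ_Si over PTPRZ_nc (horizontal axis) for the 78 tested pathway genes outside the 10, 1 point a gene, in rows by role; orange points were called higher, blue called lower and grey did not pass. Target readouts and Frizzled receptors hold orange and grey points, 6 and 3 of them orange, and the antagonists hold blue and grey points, 2 of them blue.

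The genes whose profile over the 6 libraries lay nearest to that of LGR4 were SOCS1, CHST1, RAPGEF3, SLC12A8 and NCS1. Likeness was the Euclidean distance between mean-centred log2 CPM profiles, among 11000 other tested genes with a symbol and at least 5 CPM on average. SOCS1, an inhibitor of cytokine signalling, was nearest at a distance of 0.0674, with 14.29 ± 0.442 CPM in the controls and 29.97 ± 0.222 CPM in the knockdown (SD, n = 3 each). For ZNRF3 the nearest were RASAL1, MAP2K6, ZNF81, TBCEL and POLR3F, with RASAL1, a Ras GTPase activator, at a distance of 0.0858 (30.99 ± 1.21 and 52.08 ± 3.71 CPM). With 2 groups of 3, such a profile carries the difference between the groups.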

How the data were processed

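Total RNA of 6 A498 samples was sequenced with a directional kit, per the labels' protocols. The authors deposited raw counts per gene, made, per the file headers, with featureCounts 2.0.1 in paired mode over exons of the Ensembl GRCh38 annotation, release 107, with no strand option; the submitters' processing notes name build hg38. Aligner settings: not given in the sources used here.

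Symbols came from a gene name table or GENCODE 29, which also gave coordinates, exon lengths and overlaps. Genes passing filterByExpr were compared with edgeR 4.0.16 in R 4.3.3 (TMM scaling, glmQLFit and glmQLFTest, 2-sided, Benjamini-Hochberg over all tested genes, call threshold 0.05 on the adjusted p); the SE is the log2 fold change over the root of F. CPM values are scaled by TMM. The fit was tested on simulated data with known changes. Alternatives were DESeq2 1.42.0, limma-voom (limma 3.58.1), RLE size factors, other filters, a replicate block and left-out libraries.

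The genes and lists were chosen with earlier results of these data known. Named pathway genes are, of each list, up to 3 called genes with the smallest p and the most abundant gene per length, plus the 5 nearest profiles to LGR4 and to ZNRF3, the R-spondins, the other LGR receptors and PTPRZ1; genes outside this rule are marked or are those whose call changed without a library.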

Additional observations from a re-analysis of the deposited data

How the results depend on the processing

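LGR4, ZNRF3 and TCF7 were called higher under each of the alternatives tried (DESeq2, limma-voom, RLE size factors, no filter, a mean of at least 5 CPM, the replicate block, 6 fits without 1 library, and a fit without both libraries numbered 2). Of 116 log2 fold changes recomputed for the 9 tested genes, 113 kept direction and call, 2 passed where they had not (FZD7, given above), and 1 changed sign: LRP5 was 0.01 without both libraries numbered 2. RNF43 and AXIN2 passed in no fit without 1 library (ranges 0.11 to 0.38 and 0.23 to 0.41 on the log2 scale), and RNF43 was not tested at a mean of at least 5 CPM.

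Without 1 library each, the count of called genes ran from 3182 to 4425, that of the 9 called higher from 3 to 4, that of the other pathway genes called higher from 15 to 20 and called lower from 5 to 11, where 5 came without knockdown replicate 1. Of the Wnt target readouts 3 instead of 6 were called higher at a mean of at least 5 CPM, where fewer genes were tested. Where a group kept 2 libraries the spread was pooled over both groups.

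With the replicate block 4101 genes were called, 3 of the 9 were higher and 0 lower, and 20 other pathway genes were higher and 9 lower, with SFRP4 and DVL3 gained. Libraries with the same number share only that number: the correlations of their deviations from the group means were 0.03, 0.03 and 0.02. Each library correlated best with its own number, but libraries of different number had values of only -0.02 to -0.01. Deviations were centred within each group of 3, so these values depend on one another. Whether the libraries are paired was not tested, and the labels do not say.

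Depth limits the low genes: RNF43 had 372 counts over the 6 libraries and AXIN2 608, and DKK1, LGR5, LGR6 and the R-spondins could not be tested.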

Other observations

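Receptors and scaffolds of Wnt signals that do not use beta-catenin were split. Of 10 tested genes 1 rose, 3 fell and 6 did not pass. CELSR2, an atypical cadherin of planar cell polarity, rose by a log2 difference of 0.36, from 176.8 ± 10.6 to 227.4 ± 4.94 CPM (SD over 3 libraries a group; edgeR adjusted p = 2.09e-05). Its relative CELSR1, the most abundant of the list per length, fell from 413.7 ± 24.9 to 372.6 ± 15.6 CPM (edgeR adjusted p = 0.0238), and the WNT5A receptor ROR1 fell from 50.79 ± 2.48 to 42.77 ± 2.65 CPM (edgeR adjusted p = 0.0107). The third gene that fell, CELSR3, is named because the count is small (log2 fold change -0.34, edgeR adjusted p = 0.0415). ROR1 did not pass without control library 1 or knockdown library 1 (edgeR adjusted p = 0.0589 and 0.0599), and CELSR1 not without knockdown library 1 or 2 (edgeR adjusted p = 0.108 and 0.0963). CELSR3 lost its call in limma-voom (adjusted p = 0.0615), and also without control library 1 or 2 or knockdown library 1 or 2 (edgeR adjusted p = 0.132, 0.106, 0.183 and 0.0515). Without both libraries numbered 2, neither CELSR1 nor CELSR3 passed (log2 fold change -0.08 and -0.30, edgeR adjusted p = 0.116 and 0.0583). Without knockdown library 1, none of these 3 was called lower, and without control library 2 VANGL1 was (edgeR adjusted p = 0.0119).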
